A study of Mus musculus with 9 samples.

Results

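Tumours of mice given a herb pair were compared with tumours of mice given saline, over all genes counted by RNA sequencing. Of the 9 samples of the series, 6 were used, which were the 3 tumours of the AC group and the 3 tumours of the model group. In both groups CT26 cells had been injected into BALB/c mice. The AC mice received Astragalus and Curcuma phaeocaulis Valeton, mixed 2:1, once a day at 6 g/kg, and the model mice received saline once a day at a dose that the descriptions also give as 6 g/kg. The sources used here do not give the age and sex of the mice, the site of injection, or the start and length of dosing. The descriptions do not say that the 3 tumours of a group came from separate mice, so the p-values cover no more than the spread among these 6 samples, part of which may be technical. The healthy colon samples of the series took no part in the comparison.

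CT26 is a carcinogen-induced colon carcinoma line of BALB/c origin that grows as tumours in mice of that strain, and its tumours hold host macrophages, lymphocytes, fibroblasts and vessels beside the cancer cells. Interferon-gamma from T and natural killer cells acts on genes for antigen presentation and for large GTPases that attack intracellular microbes. Transcripts of the circadian clock, of the glucocorticoid response and of heat shock proteins change within hours with time of day, feeding and stress. In a whole tumour, fewer cells of a type and less RNA per cell cannot be told apart.

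Total counts were 23476056, 19485636 and 16495522 in model tumours 1 to 3 and 17900328, 15690038 and 16084532 in AC tumours 1 to 3, with 25254 to 27784 features detected per library. Model tumour 1 and AC tumour 3 stood apart from the other 4 libraries. The first principal component of log2 CPM (CPM being counts scaled to a common library size by TMM) held 43.3% of the variance and placed them together at 40.79 and 48.03. The second, with 23.4%, placed the AC libraries between -30.1 and -18.67 and the model libraries between 2.32 and 37.49. Epcam, an epithelial adhesion protein, was at 41.5 CPM in model tumour 1, at 79.8 CPM in AC tumour 3, and at most at 1.09 CPM in the other 4 tumours. The summed level of 14 epithelial identity and junction genes was 281 and 538 CPM in those libraries and 12.7 to 17.3 CPM in the others. Krt20, a keratin of colonocytes, was present in all 6 tumours (206 to 459 CPM). Mitochondrially encoded genes took 2.39% ± 0.0939 of the counts in model tumours and 2.5% ± 0.134 in AC tumours (SD, n = 3 each, exact permutation test, two-sided, p = 0.5, where the smallest possible p is 0.1).

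**Figure D1:**
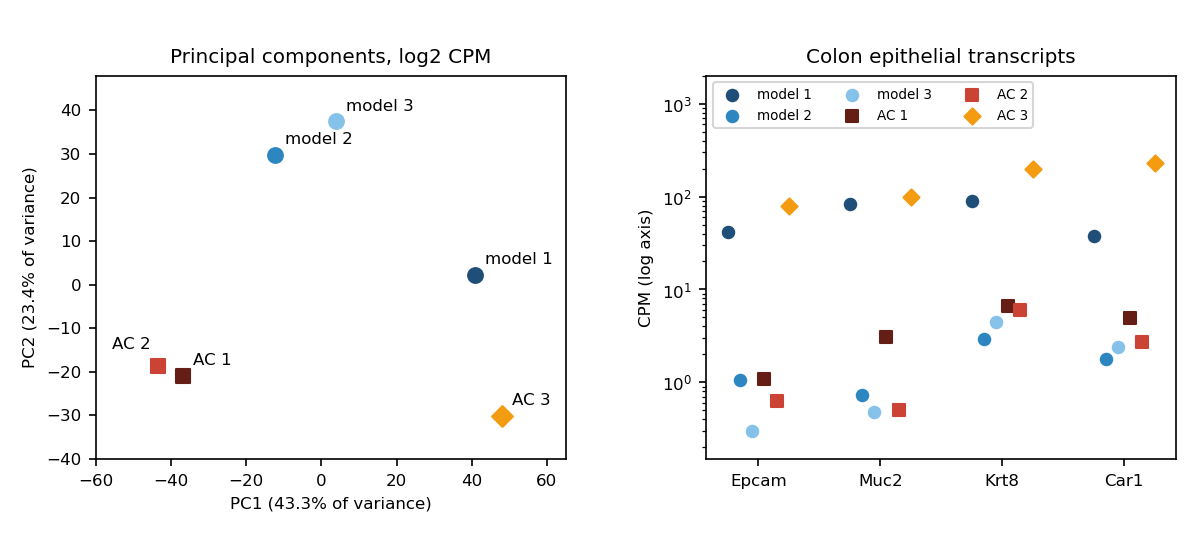
The left panel plots the 6 libraries on the first and second principal components of log2 CPM, and the right panel plots the CPM of 4 colon epithelial genes per library on a log axis. Model tumour 1 and AC tumour 3 lie to the right of the first component and hold the highest CPM of each of the 4 genes.

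No gene was called at an adjusted p of 0.05 by the quasi-likelihood test of edgeR over the 17137 features tested (0 called, 0.0%, smallest adjusted p 0.103). At an unadjusted p under 0.05 the same test gave 997 features higher in AC tumours (5.82%) and 1256 lower (7.33%), 13.1% in both directions together. Without scaling factors the split turned to 1293 higher and 1004 lower. DESeq2 on the same counts called 81 higher (0.615% of 13169 features with an adjusted p) and 214 lower (1.63%), 2.24% in all. Without AC tumour 3, edgeR called 150 higher (0.845% of 17749) and 419 lower (2.36%), 3.21% in all. Without both libraries that stood apart, it called 14 higher (0.0817% of 17132) and 80 lower (0.467%), 0.549% in all. AC and model values did not overlap for 1623 features that were higher in AC tumours (9.47%) and for 1644 that were lower (9.59%). The median log2 fold change was 0.01 and the median absolute value 0.18, so differences were small over most genes. Whether the counting used strand is not given in the sources used here, so reads of genes that overlap in their exons cannot be told apart and their values are uncertain. Among the genes named below this touches, beside those pointed out, Ankrd44, Gbp7, Bnip3, Bax, Cdkn1a, Cd276, Cd274, Dnaja1, Abcb1a, Arntl, Cdc20, Plk1, Bop1, Hspa8, Ciita and Zeb1. It also touches Gas6, Col4a1, Ch25h, Creb5 and Atg9b, and the list may not be complete. Levels are given below as CPM per library in the order of replicates 1, 2 and 3, and a gene is described as higher or lower by its values, with no call by edgeR over all 6 libraries.

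Of 569 genes called by edgeR without AC tumour 3, that tumour lay within the range of the model libraries for 182. It lay on the AC side of the midpoint between the model mean and the mean of the other AC tumours for 134, and on the AC side of the model mean for 452. DESeq2 with all 6 libraries called 190 of the 569. The 569 genes were chosen on the same model libraries against which AC tumour 3 was then placed. Its position is thus not independent of that choice, and DESeq2 used these libraries again. No matching share over all features is given here. These counts therefore cannot decide whether AC tumour 3 shares the differences of the other AC tumours.

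The 5 genes with the smallest p in each direction were taken among genes with a symbol, at least 5 CPM and groups that did not overlap. Their lack of overlap was thus a condition of the choice. Per3, a repressor of the circadian clock (ENSMUSG00000028957, GRCm38 chromosome 4, 151003652 to 151044665), was at 45.1, 49.2 and 46.5 CPM in model tumours and at 85.5, 70.3 and 79.9 CPM in AC tumours. Tsc22d3, which encodes the glucocorticoid-induced leucine zipper GILZ, was at 138, 179 and 153 CPM against 264, 241 and 305 CPM. AC tumour 3 was not apart from the other AC tumours for either gene. Their log2 fold changes were 0.74 (SE 0.101) and 0.79 (SE 0.124), with edgeR adjusted p of 0.103 and 0.127. Per2, a second period gene of the clock, was at 27.9, 37.2 and 21.9 CPM against 68.2, 62.7 and 58.1 CPM (log2 fold change 1.12, SE 0.182). Gas6, the ligand of the TAM receptor kinases that take part in the clearance of dying cells, was at 18.9, 15.2 and 17.4 CPM against 31.6, 27.2 and 31.3 CPM (0.81, SE 0.131). Rabggtb, a subunit of the enzyme that attaches lipid anchors to Rab proteins, was at 156, 205 and 160 CPM against 307, 276 and 279 CPM, and its gene holds small nucleolar RNA genes in the same span, so its value is uncertain.

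In the other direction the smallest p belonged to Lrrtm2, a leucine-rich repeat protein of synapses whose exons overlap those of Ctnna1 by 95 bases. Lrrtm2 was at 27.6, 20.7 and 23.9 CPM in model tumours and at 6.34, 8.56 and 7.98 CPM in AC tumours, and its log2 fold change was -1.66 (SE 0.176). Lrrtm2 had an adjusted p of 0.103 in edgeR and of 3.45e-12 in DESeq2. Farp1, a guanine nucleotide exchange factor (chromosome 14, 121035200 to 121283744), was at 153, 136 and 139 CPM against 78.4, 87.2 and 88.3 CPM. Serpinf1, which encodes the anti-angiogenic protein PEDF (chromosome 11, 75409769 to 75422701), was at 114, 111 and 96.1 CPM against 61.9, 68.3 and 57.2 CPM. The AC libraries of each of these 3 genes lay close together. Ankrd44, an ankyrin-repeat subunit of a protein phosphatase, was at 63.7, 52.5 and 52.1 CPM against 32.3, 29.3 and 33.4 CPM. The log2 fold changes of Farp1, Serpinf1 and Ankrd44 were -0.75, -0.78 and -0.82, each with an edgeR adjusted p of 0.103. The remaining gene of the 5, Tgtp1, belongs to the GTPases described next.

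**Figure D2:**
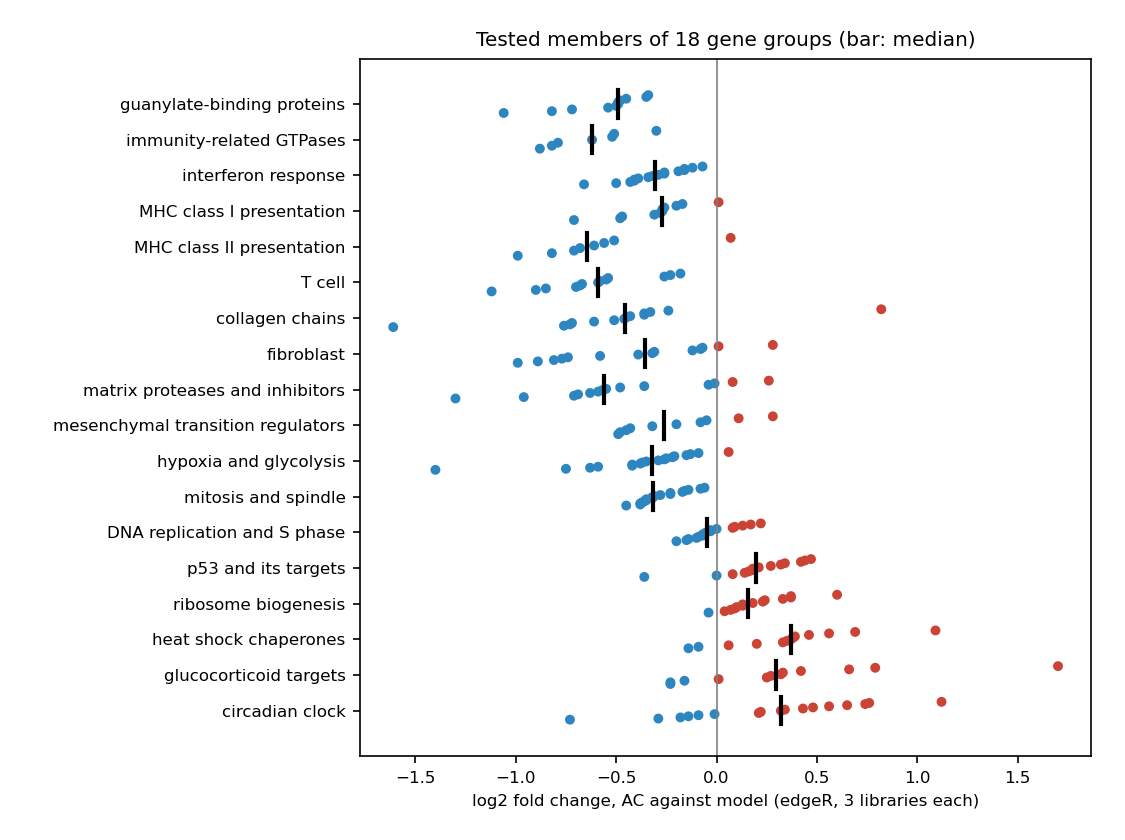
Each point is the log2 fold change of 1 tested gene (AC against model, edgeR, 3 libraries each) in 18 gene groups, and each black bar is the group's median. Interferon, antigen presentation, matrix, hypoxia and mitosis groups lie mostly to the left of 0, with medians between -0.64 and -0.26, and p53, ribosome biogenesis, heat shock, glucocorticoid and clock groups mostly to the right, with medians between 0.15 and 0.37.

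The interferon-inducible GTPases were lower in AC tumours. The immunity-related GTPases and the guanylate-binding proteins coat the vacuoles of intracellular pathogens, and both are classical targets of interferon-gamma. They were brought together after their values were seen. The promoters of 4 of the immunity-related GTPases are shown because these genes had lower levels together. They are RefSeq windows of 250 bases before the start on GRCm38.p6, printed 5′ to 3′ on the gene's strand, with matches to the gamma-activated site TTCNNNGAA and to the core GAAANNGAAA of the interferon-stimulated response element in capitals. Igtp lies at chr11:58199306-58199555 (plus strand), Irgm2 at chr11:58214727-58214976 (plus), Tgtp2 at chr11:49064213-49064462 (minus) and Irgm1 at chr11:48871421-48871670 (minus).
Igtp: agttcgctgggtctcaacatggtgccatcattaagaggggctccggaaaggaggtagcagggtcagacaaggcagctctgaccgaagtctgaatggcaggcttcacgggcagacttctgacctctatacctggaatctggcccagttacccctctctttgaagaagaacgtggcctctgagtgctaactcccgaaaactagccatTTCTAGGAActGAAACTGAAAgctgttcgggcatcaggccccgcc
Irgm2: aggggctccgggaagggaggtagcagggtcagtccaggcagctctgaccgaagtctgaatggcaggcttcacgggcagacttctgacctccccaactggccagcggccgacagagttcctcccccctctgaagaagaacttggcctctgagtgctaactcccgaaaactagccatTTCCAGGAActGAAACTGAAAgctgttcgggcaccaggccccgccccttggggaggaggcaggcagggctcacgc
Tgtp2: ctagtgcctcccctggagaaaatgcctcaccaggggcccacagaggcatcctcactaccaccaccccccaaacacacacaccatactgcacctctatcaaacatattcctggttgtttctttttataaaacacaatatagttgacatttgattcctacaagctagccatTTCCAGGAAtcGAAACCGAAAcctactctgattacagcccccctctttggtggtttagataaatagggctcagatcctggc
Irgm1: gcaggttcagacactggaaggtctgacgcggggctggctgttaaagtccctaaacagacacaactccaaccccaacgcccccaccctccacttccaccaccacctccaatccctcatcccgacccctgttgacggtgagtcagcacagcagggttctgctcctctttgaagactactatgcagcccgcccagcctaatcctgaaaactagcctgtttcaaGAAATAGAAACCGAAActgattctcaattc
Igtp, Irgm2 and Tgtp2 each held TTCNNNGAA followed after 2 bases by GAAANNGAAA, and Irgm1 held overlapping matches to GAAANNGAAA only. The Igtp pair ended 24 bases before the RefSeq start, that of Irgm2 54 and that of Tgtp2 60 bases before it. The gene models used here for coordinates begin Irgm2 at 58199618, upstream of its window. None of the 3 Irgm2 transcripts of those models matched the RefSeq start, so its distance is uncertain. Over 32851 RefSeq promoter windows of the same length, read on both strands, 7.02% held TTCNNNGAA, 2.98% held GAAANNGAAA and 0.332% held both. The windows of Igtp and Irgm2 are nearly alike over long stretches around the pair, and that of Tgtp2 shares the letters just before it. Their matches are thus not independent of each other, and were not tested against these shares. The match is a description of the letters and not of binding.

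Irgm1, a regulator of the other immunity-related GTPases, was at 135, 126 and 139 CPM in model tumours and at 86.3, 77.4 and 97.1 CPM in AC tumours (log2 fold change -0.62, SE 0.101, edgeR adjusted p 0.127). Tgtp1 was at 38, 38.1 and 36.4 CPM against 23.1, 21.7 and 20.1 CPM, and Tgtp2 at 67.9, 58.4 and 70.9 CPM against 35.2, 29.8 and 42.5 CPM. Tgtp1 and Tgtp2 are near-identical copies and Igtp and Irgm2 share 162 bases of exon, so reads may be split between them and the single values are uncertain. Iigp1 was at 252, 192 and 248 CPM against 121, 127 and 143 CPM. For all 7 immunity-related GTPases the groups did not overlap and AC was lower, against 9.59% of all features. Their median log2 fold change was -0.62, from -0.88 to -0.3, beside 0.01 over all features. All 7 had an unadjusted p under 0.05 in edgeR (7.33% of all features), DESeq2 called 6 (1.63%), and edgeR called 6 without AC tumour 3 (2.36%). Without both libraries that stood apart, edgeR called 1 of the 7 (0.467%). In contrast to the genes of epithelium, AC tumour 3 lay with AC tumours 1 and 2 here.

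The 11 guanylate-binding proteins had a median of -0.49, from -1.06 to -0.34, with 9 at an unadjusted p under 0.05 in edgeR (7.33% of all features) and 8 with groups that did not overlap (9.59%). DESeq2 called 4 of them (1.63%), and edgeR called 2 without AC tumour 3 (2.36%) and 2 without both libraries (0.467%). Gbp4 was at 236, 217 and 235 CPM against 136, 108 and 145 CPM (log2 fold change -0.82, SE 0.115, DESeq2 adjusted p 3.16e-07). Gbp9 was at 112, 102 and 106 CPM against 63.2, 53.1 and 78.7 CPM, and Gbp7 at 302, 268 and 307 CPM against 235, 182 and 207 CPM. For Gbp2 and Gbp3 AC tumour 1 lay within the range of the model tumours, and AC tumours 2 and 3 below it. For Gbp8 AC tumour 3, at 22.5 CPM, lay within the model range of 18.9 to 28.3 CPM. The guanylate-binding proteins are close copies in clusters on chromosomes 3 and 5, so single values are uncertain.

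The 16 genes of the interferon response list, which holds Gbp2 and Gbp3, all had log2 fold changes below 0 (median -0.30, from -0.66 to -0.07), 8 at an unadjusted p under 0.05 (7.33% of all features). Stat2, a subunit of the factor that type I interferon activates, was at 127, 108 and 127 CPM in model tumours and at 93, 85.5 and 98.1 CPM in AC tumours (-0.39, SE 0.0984, DESeq2 adjusted p 0.0459). The groups did not overlap for this gene. Isg15, a ubiquitin-like modifier that interferon induces, overlapped between the groups, at 32.5, 32.1 and 28.4 CPM against 29.4, 31.7 and 24.2 CPM. Ifng, interferon-gamma itself, was too low to be tested, at 0.738, 0.581 and 1.08 CPM against 0.437, 0.575 and 0.371 CPM.

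Of 11 genes for MHC class I presentation, 10 had a log2 fold change below 0 (median -0.27) and 6 an unadjusted p under 0.05 and lower (7.33% of all features). Tap1, which carries peptides into the endoplasmic reticulum, was at 187, 154 and 180 CPM in model tumours and at 102, 96.7 and 121 CPM in AC tumours (-0.71, SE 0.113, edgeR adjusted p 0.127, DESeq2 adjusted p 2.11e-05). It shares its divergent promoter and 212 bases of exon with Psmb9, an immunoproteasome subunit, which was at 85.5, 50.7 and 85.3 CPM against 54.6, 51.3 and 54.1 CPM. The light chain B2m was at 1544, 1352 and 1541 CPM against 1196, 1133 and 1332 CPM. All AC values of Tap1 and B2m lay below the model values, while H2-K1 and H2-D1, close copies of the heavy chain, overlapped between the groups.

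**Figure D3:**
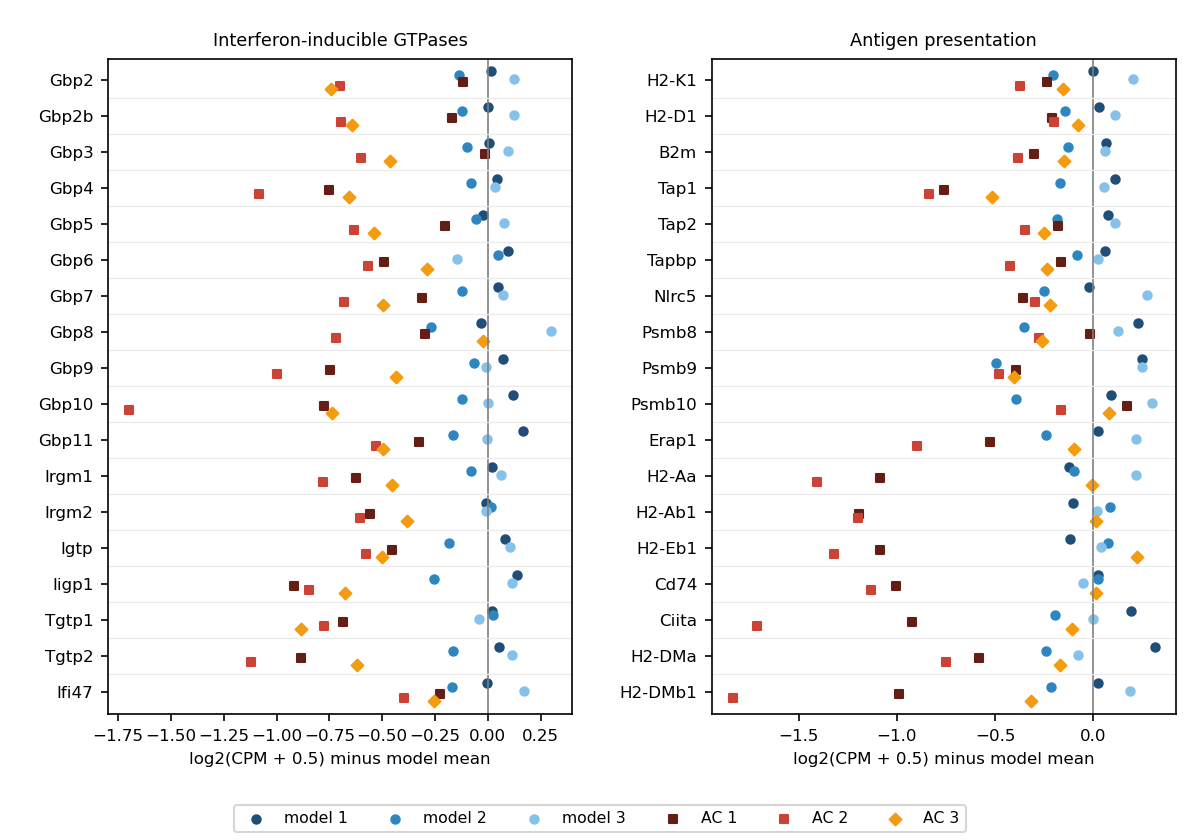
For each gene the log2(CPM + 0.5) of the 6 libraries is plotted as the difference from the mean of the 3 model tumours. In the left panel (interferon-inducible GTPases) AC tumour 3 lies with the other AC tumours below 0 for most genes, and within the range of the model tumours for Gbp8. In the right panel AC tumour 3 lies with the model tumours for the MHC class II genes H2-Aa, H2-Ab1, H2-Eb1 and Cd74, where AC tumours 1 and 2 lie lower.

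MHC class II genes, which professional antigen-presenting cells express, parted AC tumour 3 from the other AC tumours. H2-Ab1, the class II beta chain (chromosome 17, 34257689 to 34269419), was at 62.6, 71.5 and 68.2 CPM in model tumours and at 29.2, 29.1 and 67.9 CPM in AC tumours. Cd74, the invariant chain, was at 264, 264 and 250 CPM against 129, 118 and 262 CPM. In both genes AC tumour 3 was at the model level and the other AC tumours were lower. Of 8 tested class II genes, 2 had an unadjusted p under 0.05 with all libraries, both lower, against 7.33% of all features (median -0.64). Without AC tumour 3 edgeR called 6 lower (median -1.21, against 2.36% of all features). Without both libraries that stood apart, edgeR called 4 of them lower, against 0.467%. Ciita, the transactivator of these genes, was at 14.8, 11.2 and 12.9 CPM against 6.56, 3.58 and 11.9 CPM.

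Markers of the cells that carry class II differed in their behaviour. Itgax, the integrin CD11c of dendritic cells and some macrophages, was at 15.5, 12.7 and 22.7 CPM in model tumours and at 3.44, 4.6 and 7.12 CPM in AC tumours, with groups that did not overlap (log2 fold change -1.75, SE 0.315, edgeR adjusted p 0.163, DESeq2 adjusted p 6.16e-06). Zbtb46, a dendritic cell transcription factor, overlapped between the groups (12.2, 10.8 and 15.9 CPM against 11.8, 8.87 and 12.5 CPM). The 11 dendritic cell markers summed to 181 to 204 CPM in model tumours and 139 to 160 CPM in AC tumours. The 15 macrophage markers summed to 1540 to 1789 CPM in model tumours and 1638 to 2201 CPM in AC tumours, highest in AC tumours 1 and 2 where class II was lowest. Mrc1, the mannose receptor of macrophages, was at 167, 392 and 354 CPM against 624, 454 and 293 CPM, and Csf1r, the receptor that maintains macrophages, at 117, 92.1 and 104 CPM against 106, 105 and 99.1 CPM. Neither marker parted the groups. The part of cell number in the class II values was not tested.

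Of 13 tested T cell genes, 5 had an unadjusted p under 0.05, each lower in AC tumours (7.33% of all features), and the log2 fold changes of the list ran from -1.12 to -0.18 (median -0.59). No T cell gene was called by edgeR or DESeq2 over all 6 libraries, or by edgeR without AC tumour 3. Cd8b1, a chain of the CD8 co-receptor, was at 3.34, 2.85 and 3.49 CPM in model tumours and at 1.2, 1.28 and 1.98 CPM in AC tumours (-1.12, SE 0.293, edgeR adjusted p 0.257). Cd3e, a signalling subunit that accompanies the T cell receptor, was at 3.91, 3.64 and 4.69 CPM against 1.97, 2.36 and 3.22 CPM. Both genes parted the groups at levels of a few CPM, where 3 counts equal 0.13 to 0.192 CPM. The 14 T cell genes together summed to 40.2 to 55 CPM in model and 25 to 39.6 CPM in AC tumours. Natural killer and cytotoxic genes had no common direction (12 tested, median 0.05). Prf1, perforin, was at 44.7, 48.3 and 36.4 CPM against 61.7, 30.5 and 43.7 CPM, with AC tumour 1 highest and AC tumour 2 lowest.

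Pax5, a B lineage transcription factor, was at 5.86, 3.8 and 4.93 CPM in model tumours and at 1.48, 1.4 and 1.55 CPM in AC tumours (-1.72, SE 0.266, edgeR adjusted p 0.127, DESeq2 adjusted p 0.00057). Ms4a1, which encodes the B cell surface protein CD20, did not share that pattern. It was at 4.08, 0.264 and 0.18 CPM in model tumours and at 0, 0.0638 and 0.309 CPM in AC tumours, with model tumour 1 above the other 5 libraries. The Pax5 gene overlaps another annotated gene, 5730488B01Rik, by 636 bases of exon, so reads of Pax5 are uncertain. Ighg1, an immunoglobulin heavy chain gene noted after its values were seen, was at 2.47, 2.59 and 4.93 CPM against 0.0546, 0.319 and 0.186 CPM. Of the other 4 immunoglobulin constant genes looked at, Igkc parted the groups and Igha, Ighg2b and Ighg2c overlapped. Igha was at 17.2, 4.54 and 2.65 CPM against 2.51, 9.51 and 4.46 CPM.

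Mast cell proteases also parted AC tumour 3 from AC tumours 1 and 2, and it lay above the model tumours. Mcpt4, a mast cell chymase, was at 2.56, 2.54 and 2.89 CPM in model tumours and at 0.273, 0.255 and 10.5 CPM in AC tumours. Cpa3, mast cell carboxypeptidase, was at 3.25, 3.7 and 6.5 CPM against 0.984, 0.638 and 17.1 CPM. AC tumours 1 and 2 were lowest and AC tumour 3 highest of the 6 libraries for both genes. The list had no member at an unadjusted p under 0.05 over all libraries (6 tested, median 0.38), and 4 called lower by edgeR without AC tumour 3 (median -2.49, against 2.36% of all features). Without both libraries that stood apart, edgeR called 2 lower, against 0.467% of all features. Kit, the stem cell factor receptor, which cells other than mast cells also express, was at 13.5, 15 and 11.2 CPM against 11.3, 16.8 and 13.2 CPM.

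Several genes of the extracellular matrix and of mesenchymal cells were lower in AC tumours, in part with AC tumour 3 at the model level. Collagen chains of basement membranes and fibrils had a median of -0.45 over 14 tested genes, with 9 at an unadjusted p under 0.05, each lower, against 7.33% of all features and 15.2% of genes with over 8000 bases of exon. Col4a1, a chain of the basement membrane collagen, was at 594, 484 and 455 CPM in model tumours and at 344, 409 and 323 CPM in AC tumours (-0.51, SE 0.128, edgeR adjusted p 0.249, DESeq2 adjusted p 0.0222). Col1a1, of fibrillar type I collagen, was at 221, 150 and 150 CPM against 114, 117 and 119 CPM. Both parted the groups. Col6a1, of the microfibrillar type VI collagen, was at 210, 195 and 203 CPM against 108, 94.9 and 163 CPM, and Col6a3 at 301, 158 and 300 CPM against 16.9, 44.4 and 187 CPM. For type VI collagen AC tumour 3 lay nearer to the model tumours than AC tumours 1 and 2 did. Col7a1, the anchoring fibril collagen, was the exception with a log2 fold change of 0.82, at 4.99, 12.1 and 11.5 CPM against 32.2, 11.2 and 6.93 CPM.

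Fibroblast markers gave the same division. Pdgfrb, the PDGF receptor of fibroblasts and pericytes, was at 128, 92.5 and 102 CPM in model tumours and at 50.3, 64.8 and 68.6 CPM in AC tumours (-0.81, SE 0.154, edgeR adjusted p 0.185, DESeq2 adjusted p 2.14e-04). Fap, fibroblast activation protein, was at 26.2, 14.5 and 22.1 CPM against 2.19, 3.45 and 25.9 CPM, and Thbs2, the matricellular protein thrombospondin 2, at 683, 505 and 582 CPM against 163, 225 and 587 CPM. AC tumour 3 was thus with the other AC tumours for Pdgfrb and within the model range for Thbs2 and Fap. Of 14 fibroblast genes, 4 had an unadjusted p under 0.05, each lower (median -0.36), and 3 were called lower without AC tumour 3, against 7.33% and 2.36% of all features. The list summed to 2153 to 2725 CPM in model tumours and to 1489 to 2103 CPM in AC tumours. Fbn1, the microfibril protein fibrillin 1, was at 30.7, 32.7 and 24.8 CPM against 14.3, 17.6 and 17.3 CPM (-0.84, SE 0.149, edgeR adjusted p 0.145). Its exons overlap Gm9913 by 2442 bases, so its value is uncertain. Fbn1 belongs to the list of matrix glycoproteins and crosslinkers. Of its 13 tested genes, 2 had an unadjusted p under 0.05, both lower, against 7.33% of all features (median -0.18). Most of that list overlapped between the groups, as Spp1, the secreted phosphoprotein osteopontin, at 5221, 3736 and 3536 CPM against 3279, 4138 and 4600 CPM.

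Among matrix proteases and their inhibitors, 5 of 14 had an unadjusted p under 0.05, each lower, against 7.33% of all features (median -0.56, with 1 member changing sign without scaling). Mmp14, the membrane-type metalloproteinase that activates Mmp2, was at 161, 148 and 145 CPM in model tumours and at 84.1, 102 and 107 CPM in AC tumours (-0.63, SE 0.106, edgeR adjusted p 0.137, DESeq2 adjusted p 1.33e-04). Plat, tissue plasminogen activator, was at 25.8, 20.4 and 20.3 CPM against 8.74, 12.7 and 12.8 CPM. The inhibitor Timp1 did not part the groups, at 150, 149 and 138 CPM against 168, 223 and 134 CPM. Of 10 regulators and markers of mesenchymal transition, 5 had an unadjusted p under 0.05, each lower, against the same 7.33% (median -0.26). Vim, the intermediate filament vimentin, was at 4684, 4667 and 4040 CPM against 3249, 2904 and 3438 CPM (-0.48, SE 0.102, edgeR adjusted p 0.215, DESeq2 adjusted p 0.00175). Zeb1, a zinc finger repressor of epithelial genes, was at 76.3, 73.8 and 76.3 CPM against 49, 51.6 and 61.2 CPM, while Twist1 overlapped between the groups. Tgfbi, a matrix protein induced by TGF-beta, was at 121, 100 and 97.7 CPM against 73.5, 62.3 and 60.3 CPM. Tgfb1, which encodes a form of TGF-beta, did not differ beyond the spread (54, 53.3 and 49.7 CPM against 50.4, 64.9 and 44.9 CPM).

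The exon length of a gene moved with its difference between the groups. This length covers the exons of all annotated transcripts of a gene together, so it need not be that of any single transcript. Tested genes with over 8000 bases of exon had a median log2 fold change of -0.09, with 15.2% lower and 3.09% higher at an unadjusted p under 0.05. Genes of up to 1500 bases had a median of 0.06, with 3.02% lower and 4.88% higher. The median exon length was 7648 bases in the collagen list, 5750 in the fibroblast list, 4306 in the mitosis list, 3628 in the MHC class I list and 3800 over all tested genes with an annotation. The difference from the model mean for the longest genes was -0.13, -0.09 and -0.04 in AC tumours 1, 2 and 3 and between -0.04 and 0.04 in model tumours. The part of length in the collagen and fibroblast values was not tested.

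Genes that low oxygen induces through HIF1, among them those of glycolysis, were lower in AC tumours in most cases. Of 18 genes, 9 had an unadjusted p under 0.05, each lower, and 10 had groups that did not overlap, against 7.33% and 9.59% of all features (median -0.32). Car9, the membrane carbonic anhydrase that serves as a marker of hypoxia (chromosome 4, 43506966 to 43513729), was at 23.7, 40.8 and 35.2 CPM in model tumours and at 13.1, 12.7 and 12.1 CPM in AC tumours (-1.40, SE 0.195, edgeR adjusted p 0.103, DESeq2 adjusted p 2.17e-07). Its exons overlap those of Gm12454 by 214 bases. Pdk1, a kinase that inhibits pyruvate dehydrogenase, was at 85.2, 135 and 96 CPM against 59.6, 61.9 and 66.7 CPM. Bnip3, a receptor for mitophagy, was at 147, 225 and 158 CPM against 120, 126 and 106 CPM. For these 3 genes the AC tumours lay close to each other, AC tumour 3 included, and model tumour 2 was highest. Among glycolytic enzymes, Pgk1 was at 1119, 1512 and 1279 CPM against 977, 1028 and 916 CPM and Ldha at 1306, 1669 and 1454 CPM against 1369, 1359 and 1259 CPM. Ldha overlapped between the groups. Adm and Egln3, further HIF1 targets, did not part the groups, and Vegfa was at 181, 192 and 197 CPM against 161, 193 and 124 CPM. Hif1a, which is controlled mainly through its protein, was at 189, 229 and 189 CPM against 185, 174 and 168 CPM. Red blood cell genes, a sign of blood in the sample, summed to 77.6 to 182 CPM in model and 35.8 to 188 CPM in AC tumours.

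**Figure D4:**
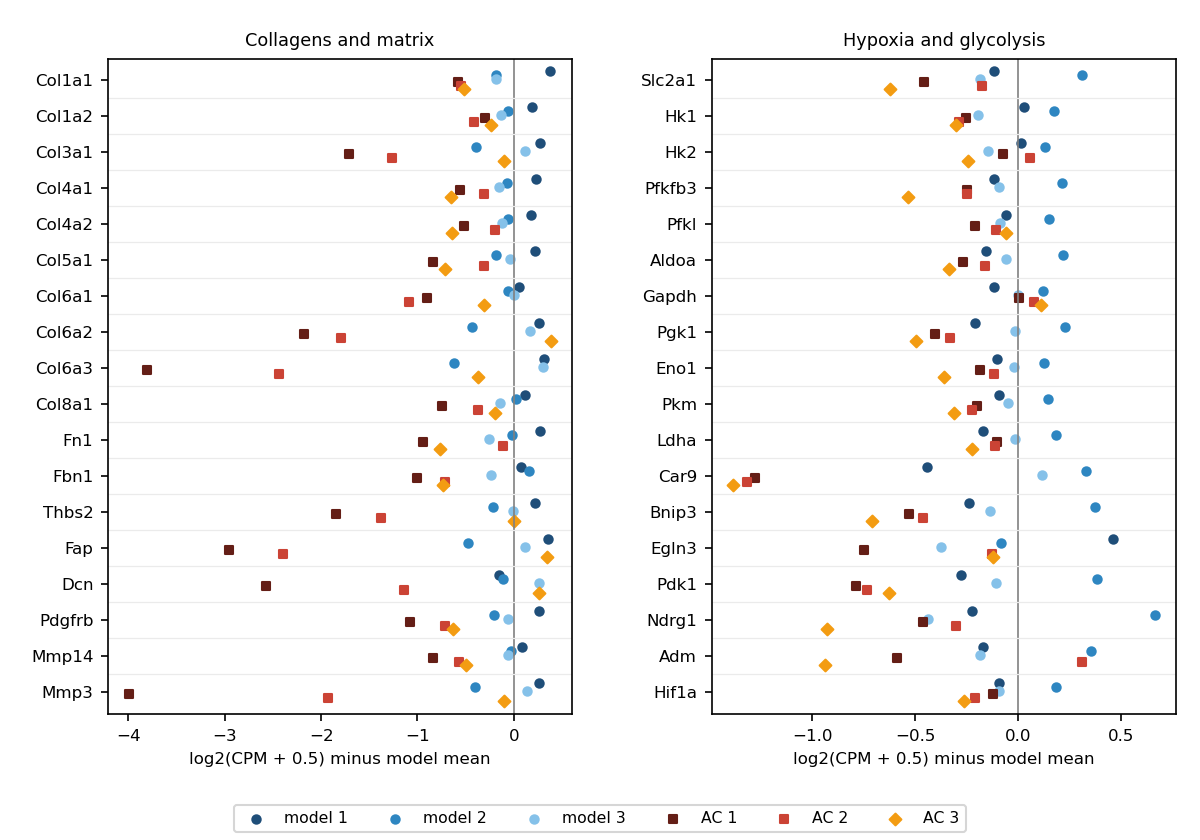
For each gene the log2(CPM + 0.5) of the 6 libraries is plotted as the difference from the mean of the 3 model tumours. In the left panel (collagens and matrix) AC tumour 3 lies near the model tumours for Col6a2, Thbs2, Fap and Dcn and with the other AC tumours for Col1a1, Col4a1 and Fbn1, and in the right panel (hypoxia and glycolysis) the 3 AC tumours lie together at the left for Car9 and Pdk1.

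Genes of mitosis were lower in AC tumours by small steps, while those of DNA replication were not. All 18 mitosis and spindle genes had a log2 fold change below 0 (median -0.31, from -0.45 to -0.06), 13 with an unadjusted p under 0.05 and 15 with groups that did not overlap, against 7.33% and 9.59% of all features. Cenpe, a kinesin of the kinetochore, was at 246, 234 and 275 CPM in model tumours and at 202, 162 and 190 CPM in AC tumours (-0.45, SE 0.106, edgeR adjusted p 0.241, DESeq2 adjusted p 0.0205). Cdc20, an activator of the anaphase-promoting complex, was at 133, 133 and 115 CPM against 96.8, 103 and 98.7 CPM, and Plk1, a mitotic kinase, at 60.3, 60.9 and 54.6 CPM against 45.6, 45.5 and 46.4 CPM. Mki67, the proliferation antigen Ki-67, was at 554, 531 and 578 CPM against 479, 442 and 498 CPM. Each of these 4 genes parted the groups without overlap. Cenpe was the 1 member that DESeq2 called, and edgeR called 2 without AC tumour 3 and 0 without both libraries that stood apart, against 1.63%, 2.36% and 0.467% of all features. Of 17 genes of replication and S phase, none had an unadjusted p under 0.05 in edgeR and none was called by DESeq2 (median -0.05, from -0.20 to 0.22). Mcm3, a subunit of the replicative helicase, was at 151, 154 and 148 CPM against 136, 160 and 148 CPM, and Pcna, the sliding clamp, at 322, 321 and 347 CPM against 353, 358 and 333 CPM. The difference between the mitosis and S phase lists was not tested.

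Targets of p53 were higher in AC tumours in some members. Of 14 tested, 5 had an unadjusted p under 0.05 and 6 had groups that did not overlap, each higher, against 5.82% and 9.47% of all features (median 0.19). Phlda3, an inhibitor of AKT, was at 51.3, 55 and 59 CPM in model tumours and at 82.5, 82.5 and 64.4 CPM in AC tumours (0.47, SE 0.119, edgeR adjusted p 0.249, DESeq2 adjusted p 0.0468). Bax, a pore-forming apoptosis protein, was at 44.7, 46.5 and 51.4 CPM against 71.7, 67.2 and 54.2 CPM, and Cdkn1a, the cell cycle inhibitor p21, at 161, 143 and 141 CPM against 205, 189 and 162 CPM. AC tumour 3 lay nearest to the model tumours in all 3 genes. Bbc3, Pmaip1 and Fas, further targets, overlapped between the groups, and Trp53 itself was at 167, 162 and 137 CPM against 158, 159 and 150 CPM.

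The circadian clock is a loop in which ARNTL and CLOCK switch on the period and cryptochrome genes through E-boxes, and the period and cryptochrome proteins repress them in turn. In AC tumours several output and repressor genes were higher and Arntl was lower. The promoter of Per3 is shown because Per3 had the smallest p among the genes named here that were higher in AC tumours. It is the RefSeq window of 250 bases before the start on GRCm38.p6, chr4:151044666-151044915 (minus strand), with matches to TTANNTAA, the letters of a D-box, in capitals.
Per3: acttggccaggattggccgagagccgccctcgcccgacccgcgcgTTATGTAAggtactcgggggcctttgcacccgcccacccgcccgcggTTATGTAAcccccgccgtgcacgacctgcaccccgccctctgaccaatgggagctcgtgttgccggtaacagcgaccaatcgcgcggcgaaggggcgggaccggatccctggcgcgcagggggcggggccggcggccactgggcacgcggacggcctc
The window held the letters TTATGTAA in 2 places, ending 197 and 150 bases before the start, and 5.43% of the 32851 RefSeq windows held TTANNTAA on either strand. D-boxes are bound by the activators DBP, TEF and HLF and by the repressor NFIL3. The RefSeq table used here held no window of Per2.

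Of 17 tested clock genes, 5 had an unadjusted p under 0.05 and were higher in AC tumours and 1, Arntl, was lower, against 5.82% and 7.33% of all features (median 0.32, with 1 member changing sign without scaling). Arntl, which encodes BMAL1, was at 50.3, 49.8 and 60.9 CPM in model tumours and at 32.1, 29.4 and 35.2 CPM in AC tumours (-0.73, SE 0.118, edgeR adjusted p 0.127, DESeq2 adjusted p 1.33e-04). Per2 and Per3, given above, lay on the opposite side with DESeq2 adjusted p of 4.41e-06 each. Tef was at 94, 97.7 and 64.4 CPM against 156, 152 and 126 CPM (0.76, SE 0.164, DESeq2 adjusted p 0.00156). Dbp was at 15.7, 11.4 and 10.5 CPM against 20.9, 16.8 and 21.5 CPM, and Bhlhe41, the repressor DEC2, at 20.8, 23.2 and 19.7 CPM against 27.5, 30.7 and 27.8 CPM. The groups did not overlap for any of these 6 genes, and AC tumour 3 lay with the other AC tumours. Tef, Dbp and Bhlhe41 overlap other genes in their exons, by 193, 539 and 1280 bases. Other parts of the loop overlapped between the groups, among them Clock at 175, 208 and 196 CPM against 178, 198 and 199 CPM, Cry1, Cry2, Per1, and Nr1d1, the repressor REV-ERB alpha, at 51.2, 46.4 and 32.5 CPM against 37.5, 39.5 and 38.1 CPM. The sources used here do not give the time of day at which tumours were taken, so a difference in time between the groups cannot be told apart from treatment.

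Of 12 targets and parts of the glucocorticoid response, 4 had an unadjusted p under 0.05 and were higher and 1, Nr3c1, was lower, against 5.82% and 7.33% of all features (median 0.30). Beside Tsc22d3, Fkbp5, a co-chaperone of the glucocorticoid receptor, was at 263, 281 and 212 CPM in model tumours and at 310, 298 and 341 CPM in AC tumours (0.33, SE 0.116). Zbtb16, a zinc finger protein that steroids induce, was at 0.738, 1.64 and 0.301 CPM against 2.35, 2.43 and 4.02 CPM. Nr3c1, the receptor itself, was at 277, 275 and 288 CPM against 236, 230 and 251 CPM. Tsc22d3 and these 3 genes parted the groups without overlap. Other induced genes did not, as Dusp1 at 31.2, 28.4 and 25.7 CPM against 25.4, 26.3 and 21.1 CPM and Sgk1 at 116, 161 and 91.5 CPM against 119, 127 and 198 CPM.

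Heat shock chaperones, which keep proteins folded, were higher in AC tumours 1 and 2 above all. Of 13 tested, 6 had an unadjusted p under 0.05 and 7 had groups that did not overlap, each higher, against 5.82% and 9.47% of all features (median 0.37). Hsph1, the HSP110 chaperone (chromosome 5, 149614287 to 149636376), was at 216, 227 and 319 CPM in model tumours and at 622, 667 and 337 CPM in AC tumours (1.09, SE 0.296, DESeq2 adjusted p 3.65e-04). AC tumours 1 and 2 were far above the rest, and AC tumour 3 lay just above the highest model tumour. Dnaja1, a co-chaperone of HSP70, was at 264, 251 and 299 CPM against 413, 463 and 326 CPM (0.56, SE 0.134, edgeR adjusted p 0.24, DESeq2 adjusted p 0.0118). Hspa8, the constitutive HSP70, was at 1371, 1554 and 1662 CPM against 2136, 1964 and 1850 CPM, and Hsp90aa1 at 1031, 1057 and 1035 CPM against 1463, 1470 and 1156 CPM. Hspa1b, a copy of the stress-induced HSP70 and near-identical to Hspa1a, was at 17.4, 18.3 and 19.4 CPM against 16.3, 19.8 and 14 CPM, and Hsp90ab1 and Bag3 also overlapped between the groups. Ribosome biogenesis genes had 6 of 14 higher at an unadjusted p under 0.05, against 5.82% of all features (median 0.15). Bop1, of the large ribosomal subunit pathway, was at 61, 71.3 and 64.2 CPM against 106, 118 and 73.2 CPM (0.60, SE 0.169, edgeR adjusted p 0.264). Cytosolic ribosomal proteins had a median of 0.03 over 18 genes, from -0.04 to 0.31.

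**Figure D5:**
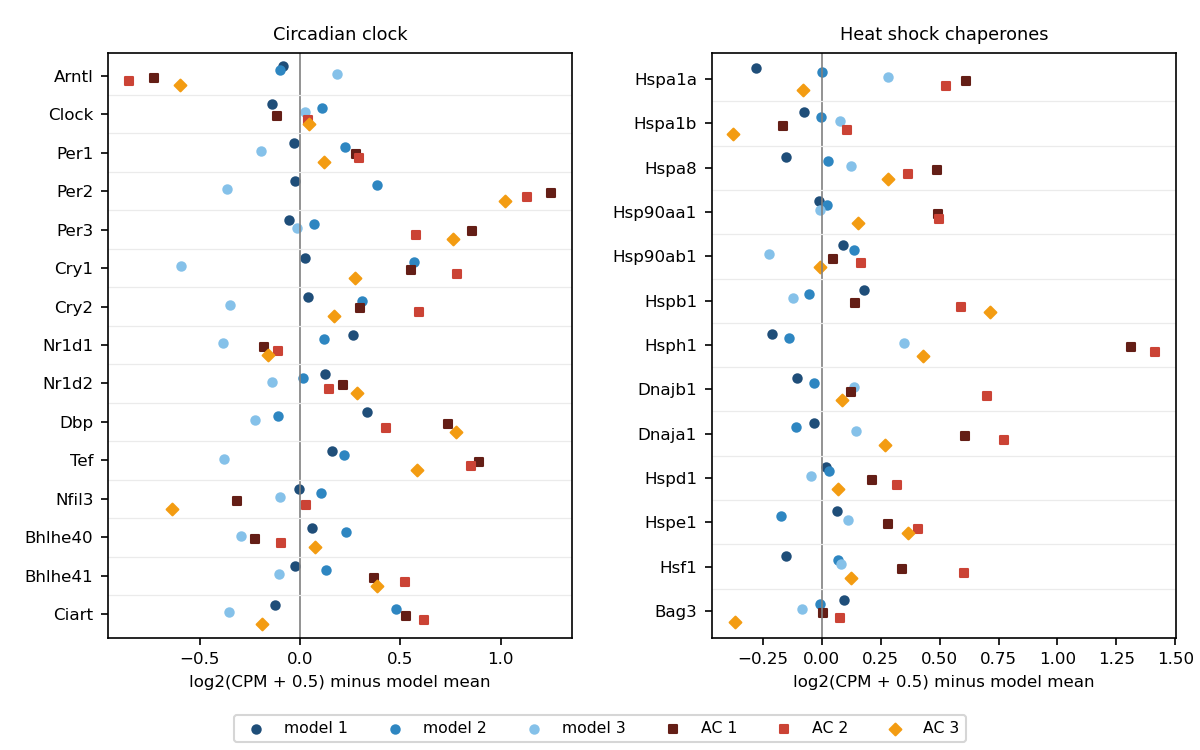
For each gene the log2(CPM + 0.5) of the 6 libraries is plotted as the difference from the mean of the 3 model tumours. In the left panel (circadian clock) the 3 AC tumours lie together to the right for Per2, Per3 and Tef and to the left for Arntl, and in the right panel (heat shock chaperones) AC tumours 1 and 2 lie farthest to the right for Hsph1 and Dnaja1, with AC tumour 3 nearer to the model tumours.

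Of 12 NF-kB and inflammasome genes, none had an unadjusted p under 0.05 in edgeR and none was called by DESeq2 (median -0.08, from -0.32 to 0.27). Nfkb1 was at 175, 178 and 166 CPM in model tumours and at 165, 166 and 152 CPM in AC tumours, and Nlrp3, the inflammasome sensor, at 11.9, 20.3 and 12.3 CPM against 20.1, 21.8 and 8.17 CPM. Of 12 checkpoint genes, 2 had an unadjusted p under 0.05, both lower, against 7.33% of all features lower and 13.1% in both directions. Cd276, the ligand B7-H3, was at 27, 21.9 and 20.9 CPM against 13.1, 14.7 and 8.73 CPM (-0.93, SE 0.207, edgeR adjusted p 0.231, DESeq2 adjusted p 0.00507), and Cd274, PD-L1, at 51.8, 61.6 and 65 CPM against 44.6, 55.5 and 41.2 CPM. Cd274 overlapped between the groups and Cd276 did not. Abcb1a, a drug efflux pump, was at 107, 120 and 103 CPM against 148, 191 and 225 CPM (0.77, SE 0.148, edgeR adjusted p 0.186, DESeq2 adjusted p 2.12e-04). Areg, the EGF receptor ligand amphiregulin, was at 4.25, 5.02 and 3.19 CPM against 5.35, 12.3 and 13.5 CPM (1.32, SE 0.355, DESeq2 adjusted p 0.017). C1ra, a protease of the classical complement pathway, was at 74.9, 76 and 82.8 CPM against 56.6, 41.7 and 45.4 CPM (-0.70, SE 0.124, edgeR adjusted p 0.146). Endothelial genes had a median of -0.06 over 12 tested, with 1 lower at an unadjusted p under 0.05, against 7.33% of all features. Nuclear-encoded respiratory chain genes had a median of 0.07 over 15, with none at that p.

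Rpl17, a ribosomal protein gene singled out after its values were seen, was at 357, 291 and 275 CPM in model tumours and at 101, 104 and 280 CPM in AC tumours. Its processed copies Rpl17-ps5 and Rpl17-ps10 differed the other way, at 21.5, 30.6 and 33.4 CPM against 61.5, 68.1 and 37.8 CPM and at 114, 84.9 and 208 CPM against 300, 297 and 160 CPM. The copies Rpl17-ps3 and Rpl17-ps8 overlapped between the groups, with log2 fold changes of 0.02 and 0.25. AC tumours 1 and 2 were low in Rpl17 and high in Rpl17-ps5 and Rpl17-ps10, and AC tumour 3 was near the model tumours in all 3. Reads of the gene and its copies can be shared, so none of these values is certain.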

How the data were processed

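RNA of 6 tumours (3 model, 3 AC) was analysed from the authors' deposited count table (whole reads for each gene). The submitters' processing notes name featureCounts 1.5.0-p3 and the build mm9. The FPKM values deposited by the authors served as a check. The sources used here do not give the aligner or the strand setting. The gene lengths in the table matched GENCODE M21 models of GRCm38 within 1% for 95.7% of 13379 genes with at least 200 counts, and coordinates follow those models. Of 56398 features, 54446 had Ensembl identifiers, 54409 of them with a symbol, and 1952 were the authors' own.

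Counts were filtered by expression, scaled by TMM and tested with the quasi-likelihood test of edgeR 4.0.16 (R 4.3.3), with Benjamini-Hochberg adjustment over all 17137 features tested. DESeq2 1.42.0, and limma 3.58.1 on log2(FPKM + 0.1) or log2(FPKM + 1), were alternatives, beside other scalings and filters and leaving out libraries. The procedure was also run on simulated counts in which no library was made to stand apart. That simulation does not bear on how the calls depend on AC tumour 3. Fold changes are AC against model on the log2 scale. A floor of 3 counts was 0.13 to 0.192 CPM.

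Members and the 66 gene lists (837 distinct genes) were chosen with earlier results of these data known. Named genes were, in each direction, the 5 of lowest p at 5 CPM or more whose groups did not overlap, since none was called. Pseudogenes, mitochondrially encoded genes and genes with only a Gm, Rik or accession-like name were left out of these 5. The 1 member of each list with the smallest p was added, whether or not its groups overlapped (74 genes in all). Further examples were chosen after their values were seen. Some items are not reported here.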

Additional observations from a re-analysis of the deposited data

How the results depend on the processing

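The number of genes called at an adjusted p of 0.05 depended on the method and on AC tumour 3. It was 0 with edgeR over all 6 libraries and 295 with DESeq2 (81 higher, 214 lower). Without a filter on low counts it was 105 (23 higher, 82 lower), and without both model tumour 1 and AC tumour 3 it was 94 (14 higher, 80 lower). Leaving out 1 library at a time gave 0 to 569 (0 to 150 higher, 0 to 419 lower), and only the fit without AC tumour 3 was above 0. At an unadjusted p under 0.05 these fits gave 553 to 1615 higher and 710 to 2173 lower. Of the 74 named genes, DESeq2 called 32, the fit without both libraries 6, the fit without a filter 23, and the fits without 1 library 0 to 28. Of the 837 distinct list genes, some of them not tested, these called 38, 18, 19 and 0 to 57. Over all features DESeq2 called 2.24%, the fit without both libraries 0.549% and the fit without AC tumour 3 3.21%. The 74 genes were picked for the smallest p of their direction or list in these same data. A high share of them called was thus built into the choice. No gene was called under upper-quartile factors, no scaling, DESeq2 size factors in edgeR, a minimum of 1 CPM, limma on FPKM with either pseudocount, or the newer or non-robust quasi-likelihood fits of edgeR. The newer and non-robust fits were chosen after seeing the data. Krt18 turned from -0.56 to 0.32 without model tumour 1 (range -1.92 to 0.32 over fits without 1 library). Alas2 turned from -0.30 to 0.07 without AC tumour 3 (range -0.81 to 0.07) and to 0.1 without both libraries. The cause was not tested.

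With the replicate number as a block, edgeR called 0 genes (877 higher and 1343 lower at an unadjusted p under 0.05, smallest adjusted p 0.149). Same-numbered samples deviated with correlations of -0.374, 0.332 and -0.147. Model tumour 2 and AC tumour 2 correlated best with each other, and the highest correlation was between model tumour 1 and AC tumour 3 (0.505). With 3 libraries per group these values cannot decide whether the numbers pair the samples.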

Other observations

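Some genes outside the lists, singled out after their values were seen, parted the groups with AC tumour 3 beside the other AC tumours. Ch25h, which makes the immune oxysterol 25-hydroxycholesterol, was at 20.2, 16.3 and 21 CPM in model tumours and at 9.02, 9.13 and 9.35 CPM in AC tumours (log2 fold change -1.06, SE 0.153, edgeR adjusted p 0.11). Anln, the cytokinesis scaffold anillin, was at 542, 536 and 537 CPM against 406, 375 and 408 CPM. Creb5, a transcription factor of the CREB family, was at 73.3, 67 and 62.7 CPM against 46.7, 41.4 and 41.5 CPM. These 3 genes were lower in each AC tumour than in any model tumour.

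Atg9b, an autophagy membrane protein, was higher, at 48, 64.3 and 64 CPM against 106, 92.7 and 91.8 CPM (0.72, SE 0.129, edgeR adjusted p 0.151). Hal, histidine ammonia-lyase, was at 18.2, 32.4 and 26.6 CPM against 48, 49.1 and 169 CPM, with AC tumour 3 far above the other AC tumours.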
